A study of Mus musculus with 36 samples.

Results

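The mouse Hox genes lie in 4 clusters, and 37 of them were followed here through the germ cells and supporting cells of the fetal gonad. A gene was included where the array carried a probe set named for that Hox gene alone, and each of the 37 had exactly 1 such probe set among the 19938 genes of the table. The probe set named for Hoxb8 was also named for Hoxb7, so Hoxb8 was not analysed here. The included genes were 10 of the Hoxa cluster on chromosome 6, 9 of Hoxb on chromosome 11, 9 of Hoxc on chromosome 15 and 9 of Hoxd on chromosome 2.

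Hox genes encode homeodomain transcription factors that give cells their position along the axis from head to tail. Within a cluster they are numbered in the order in which they lie, and genes of like number in different clusters, called paralogs, descend from a common ancestor. Low-numbered genes are used towards the head and high-numbered genes towards the tail, and in most cells that do not use them the clusters are held silent by Polycomb proteins. In germ cells the clusters are known to be kept mostly silent, while the gonad's somatic cells derive from trunk mesoderm.

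The cells were profiled on Affymetrix Mouse Gene 1.0 ST arrays, and all values are log2 expression. Germ cells and supporting cells, the somatic lineage of Sertoli and pregranulosa cells, were sorted from XX and XY gonads. The labels give 3 stages, TS13, TS24 and TS34, which span the time when ovary and testis part ways. This gives 12 groups of 3 arrays. Gonads were pooled by sex, dissociated with trypsin and sorted with DAPI as the dead-cell stain.

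Germ cells of every group carried an Oct4 reporter and were progeny of C57BL/6NJ on a mixed background. Supporting cells of all XX groups and of the XY group at TS13 came from Tg(Sry-EGFP)92Ei mice, progeny of CD-1. Supporting cells of the XY groups at TS24 and TS34 came from Tg(Sox9-cre/ERT2)1Msan/J mice, progeny of C57BL/6, which mark cells through Sox9. Cell type and mouse line therefore cannot be told apart, nor can sex and mouse line in supporting cells at TS24 and TS34, nor stage and mouse line in the XY step from TS13 to TS24. Within 1 line lie the sex comparison of supporting cells at TS13, all XX supporting groups and all germ cell comparisons. The XY supporting step from TS24 to TS34 also lies within 1 line.

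The array labelled germ XX TS24 replicate 3 was left out. Its germ markers averaged 5.62 and its supporting markers 10.3, against 10.81 to 11.60 and 6.50 to 7.36 on the 17 germ arrays used. On the 18 supporting arrays the same lists averaged 5.48 to 6.95 and 9.20 to 10.46. Germ XX TS24 thus rests on 2 arrays, and in bulk samples fewer cells of a type and less RNA per cell cannot be told apart. Differences were tested with limma over 17571 genes, with all p-values below adjusted by Benjamini-Hochberg over those genes, and a gene was called at an adjusted p under 0.05. Errors are standard errors (SE) of differences from that fit, or SD where stated.

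The sequences upstream of 3 genes that were higher in supporting cells, Hoxc4, Hoxd8 and Hoxd9, are shown because promoters are where activating and silencing factors meet. They are the 250 bases before each gene's start in RefSeq (build GRCm38.p6, plus strand): chr15:103034145-103034394 for Hoxc4, chr2:74704365-74704614 for Hoxd8 and chr2:74697513-74697762 for Hoxd9. Capitals mark matches, on either strand, to 5 motifs searched by their letters. The PBX-HOX site was read as TGATNNAT and the TATA box as TATAAA. The GC box was read as GGGCGG, and the CCAAT box by the letters of its name. The core of a nuclear receptor element, which retinoic acid receptors bind in pairs, was read as AGGTCA and is called a receptor core here.
Hoxc4: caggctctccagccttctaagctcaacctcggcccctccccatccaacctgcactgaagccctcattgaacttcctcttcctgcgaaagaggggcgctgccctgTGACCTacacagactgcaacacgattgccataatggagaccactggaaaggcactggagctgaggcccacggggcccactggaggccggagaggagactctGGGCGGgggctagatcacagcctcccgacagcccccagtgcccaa
Hoxd8: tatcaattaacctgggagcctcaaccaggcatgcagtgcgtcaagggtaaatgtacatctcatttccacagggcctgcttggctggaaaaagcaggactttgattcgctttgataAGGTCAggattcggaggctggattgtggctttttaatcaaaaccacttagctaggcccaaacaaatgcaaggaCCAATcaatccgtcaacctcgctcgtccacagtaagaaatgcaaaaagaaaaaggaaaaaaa
Hoxd9: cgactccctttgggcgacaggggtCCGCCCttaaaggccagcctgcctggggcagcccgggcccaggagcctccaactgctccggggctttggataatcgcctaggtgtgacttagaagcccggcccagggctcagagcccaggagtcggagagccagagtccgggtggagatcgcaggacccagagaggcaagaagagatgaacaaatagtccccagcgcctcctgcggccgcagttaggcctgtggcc

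Hoxc4 had a GC box 45 bases before the start and a receptor core 146 bases before it. Hoxd8 had a CCAAT box at 62 bases and a receptor core at 135 bases, and Hoxd9 a GC box at 226 bases. None of the 3 windows held the TATA box or the PBX-HOX letters. The windows for 21 of the 37 Hox genes, 23 in all, had a median of 59.2% G and C and 13 CpG pairs. The 32851 windows of the whole table had medians of 52.4% and 6. A PBX-HOX site was found in 3 of the 23 Hox windows against 7.68% of all windows, a TATA box in 3 against 12.4%, a GC box in 9 against 32.7%, a CCAAT box in 13 against 33.8% and a receptor core in 6 against 14%. These are descriptions of letters and not of bound sites.

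The clusters also hold microRNA genes of the miR-196 and miR-10 families, which target Hox messenger RNAs. The mature sequences are shown because 1 of these genes, Mir196a-1 in the Hoxb cluster, differed between groups. Capitals mark the seed, bases 2 to 8 from the 5′ end, which guides target pairing. In GRCm38.p6 the mature miR-196a-5p lies at chr11:96265187-96265208 (plus strand, Mir196a-1), miR-196b-5p at chr6:52230129-52230150 (minus strand) and miR-10b-5p at chr2:74726074-74726096 (plus strand). The same miR-196a-5p is also encoded by Mir196a-2 in the Hoxc cluster, at chr15:102973365-102973386 (plus strand).
miR-196a-5p: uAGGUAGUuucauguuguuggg
miR-196b-5p: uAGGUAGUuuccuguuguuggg
miR-10a-5p: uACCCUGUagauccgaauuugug
miR-10b-5p: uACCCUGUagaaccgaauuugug

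The first 2 share the seed AGGUAGU and the last 2 the seed ACCCUGU. Mir196a-1 lies between Hoxb13 and Hoxb9, and its values are given beside those of Hoxb9.

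Most Hox genes varied little across the 12 groups. Of the 37 genes, 36 exceeded the 25th percentile of their array on at least 3 arrays and were tested; Hoxc11 did so on 1 array and was not. Of the 36, 17 were called in at least 1 of the 17 planned comparisons, against 61.8% of all genes tested. By cluster these were 4 of 10 Hoxa, 1 of 9 Hoxb, 6 of 8 Hoxc and 6 of 9 Hoxd genes. The 19 genes called in no planned comparison ran from Hoxa2 and Hoxb1 towards the head end of their clusters to Hoxa13, Hoxb13, Hoxc13 and Hoxd13 at the tail end.

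The range between the highest and lowest group mean had a median of 0.56 in Hoxa, 0.59 in Hoxb, 0.82 in Hoxc and 0.90 in Hoxd, against 0.86 over all genes tested. Within groups the median SD of a Hox gene was 0.19. A range over 1 was reached by 7 Hox genes: Hoxb9 (1.40), Hoxc4 (1.46), Hoxc6 (2.67), Hoxc8 (1.15), Hoxd8 (1.56), Hoxd9 (1.21) and Hoxd11 (1.06). No Hoxa gene did, and among all genes 42.2% did. Several of the flat genes were read above their array's median on all 35 arrays, such as Hoxa4 with group means of 7.81 to 8.33 and Hoxb3 with 7.40 to 7.64. Such a steady value does not tell expression from a probe set's own background. Hoxa2, Hoxa13, Hoxb13 and Hoxd13 were above the array median on 0 of 35 arrays.

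**Figure D1:**
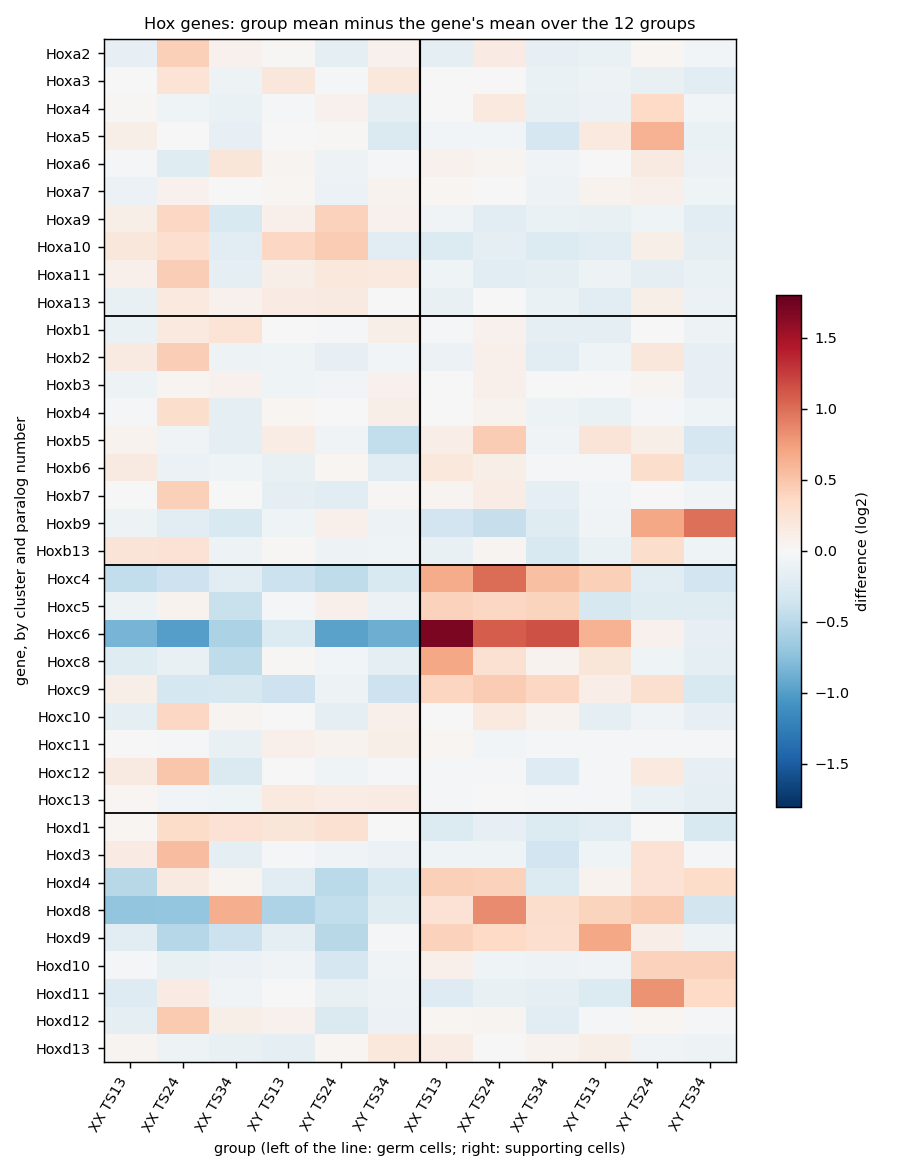
Group means of the 37 Hox genes (rows, by cluster and paralog number) in the 12 groups (columns, germ cells left of the vertical line and supporting cells right of it), each minus the gene's own mean over the groups, in log2 units. Colour stands out in the rows from Hoxc4 to Hoxc9, in Hoxd4 to Hoxd11 and in Hoxb9, while most Hoxa and Hoxb rows stay pale.

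Averaged over sexes and stages, 8 Hox genes were higher in supporting cells than in germ cells, a count near the share of all genes called higher. Of the 36 genes, 12 were called (33.3%), 8 higher and 4 lower in supporting cells. Of all genes 53.2% were called, 20.3% higher and 32.9% lower. The median difference of the Hox genes was 0.01 and that of all genes -0.08. The 8 higher genes were Hoxc4, Hoxc6, Hoxc8, Hoxc9, Hoxd4, Hoxd8, Hoxd9 and Hoxb9, which carried paralog numbers 4 to 9. This holds for the values as deposited, and the numbers under other scalings are not given here. Of the 7 genes numbered 1 to 3, 0 were higher and 1, Hoxd1, was lower.

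Hoxc6, a gene of the thoracic part of the axis, had the largest difference. It ran from 6.55 to 8.90 with a median of 7.70 on the 18 supporting arrays. On the 17 germ arrays it ran from 5.60 to 6.89 with a median of 6.01. Every supporting group mean lay above every germ group mean, although single arrays overlapped. The difference was 1.50 ± 0.11 (adjusted p = 1.07e-16).

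Hoxc4, which lies at the head end of its cluster, ran from 5.56 to 7.46 with a median of 6.35 in supporting cells and from 5.31 to 6.17 with a median of 5.58 in germ cells. The difference was 0.71 ± 0.10 (adjusted p = 2.90e-08). All 3 arrays of each XX supporting group were above every germ array, while XY supporting arrays of each stage overlapped them. Hoxc4 was not above its array's median on any germ array.

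Hoxd8 ran from 5.69 to 7.22 with a median of 6.51 in supporting cells and from 5.32 to 6.96 with a median of 5.57 in germ cells. It differed by 0.66 ± 0.09 (adjusted p = 8.58e-09). Hoxd9 ran from 7.07 to 8.26 with a median of 7.75 in supporting cells, from 6.60 to 7.75 with a median of 7.20 in germ cells, and differed by 0.60 ± 0.10 (adjusted p = 5.70e-07). Both overlapped between the cell types. For Hoxd8 the high germ arrays were those of XX at TS34.

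Smaller rises were called for Hoxc9 (0.44 ± 0.08), Hoxd4 (0.42 ± 0.10), Hoxc8 (0.33 ± 0.10) and Hoxb9 (0.22 ± 0.09). The last had an adjusted p of 0.0437 and lost its call when any 1 of 18 arrays was left out, with adjusted p up to 0.11. The Hoxd4 difference ranged from 0.30 without germ XX TS24 replicate 1 to 0.53 without replicate 2 of that group. Those 2 arrays read 6.27 and 7.64 for Hoxd4, and the second also had the higher supporting marker mean, 7.36 against 6.65. The part of those markers in the value was not tested.

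Lower in supporting cells were Hoxd1 (-0.38 ± 0.08) and 3 neighbours of the Hoxa cluster, Hoxa10 (-0.31 ± 0.09), Hoxa11 (-0.28 ± 0.09) and Hoxa9 (-0.26 ± 0.08). All 4 overlapped between the cell types. Hoxa10 and Hoxa11 are textbook genes of the reproductive tract, and they lay below their array's median on all 35 arrays. Under quantile normalization of the arrays the median of all genes moved from -0.08 to 0.04, 19 Hox genes were called, 16 higher and 3 lower, and Hoxa11 was no longer called. Under median centring the split was 14 higher and 4 lower.

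**Figure D2:**
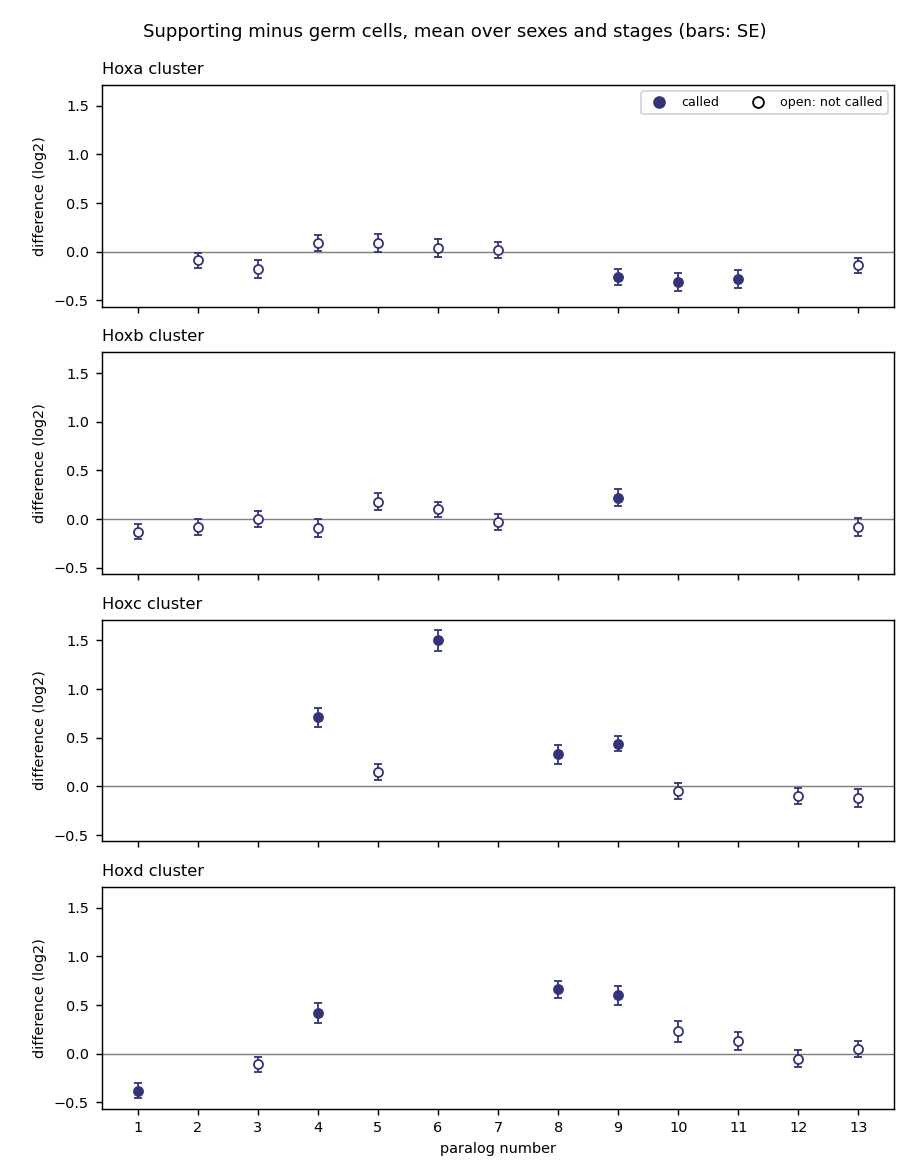
Difference between supporting and germ cells (log2, mean over sexes and stages, bars are SE) for each tested Hox gene against its paralog number, with 1 panel per cluster. Filled points passed the test. The Hoxc panel peaks at Hoxc6 (1.50) and the Hoxd panel at Hoxd8 (0.66), and the Hoxa panel dips at paralogs 9 to 11.

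Seen in each sex alone, the set of higher genes was not the same. These comparisons were added after the values were seen. In XX, 10 of 36 genes were called, 7 higher and 3 lower, against 43.3% of all genes, 17.2% higher and 26.2% lower. The 7 were Hoxc6 (2.11 ± 0.16), Hoxc4 (1.07 ± 0.15), Hoxd8 (0.72 ± 0.13), Hoxd9 (0.72 ± 0.14), Hoxc8 (0.61 ± 0.14), Hoxc9 (0.57 ± 0.12) and Hoxc5 (0.54 ± 0.12). Of these, 5 were Hoxc genes, and the median of the 8 Hoxc genes was 0.55 against -0.06 for all genes. Quantile normalization and median centring each called 9 higher and 2 lower.

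In XY, 13 genes were called, 10 higher and 3 lower, against 47.1% of all genes, 16.8% higher and 30.3% lower. The higher genes were led by Hoxc6 (0.88 ± 0.16), Hoxd8 (0.59 ± 0.12), Hoxb9 (0.56 ± 0.13), Hoxd4 (0.54 ± 0.15) and Hoxd9 (0.48 ± 0.14). Hoxd10 (0.40 ± 0.15), Hoxd11 (0.39 ± 0.12) and Hoxa5 (0.31 ± 0.13) were among the others. Of the 18 fits without 1 array, Hoxa5 lost its call in 12 (adjusted p up to 0.106), Hoxd10 in 4, and Hoxc4 in 9, its difference of 0.34 falling as low as 0.22. Here 5 of the 9 Hoxd genes were higher, with a Hoxd median of 0.39, and the Hoxc median was 0.04. Hoxa10 and Hoxd1 were called lower in both sexes, with Hoxd3 in XX and Hoxa9 in XY. In XX Hoxa10 was not called under quantile normalization (adjusted p = 0.0826) or median centring (adjusted p = 0.0558), nor in 7 of the 17 fits without 1 array, and in XY it lost its call in 9 of 18. In XY no Hox gene stayed lower under quantile normalization, which called 16 higher, or under median centring, which called 12 higher.

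The difference between the sexes' patterns was tested directly as the sex difference in supporting cells minus that in germ cells, averaged over stages, another comparison added after the values were seen. It called 7 of 36 Hox genes, 3 higher and 4 lower, against 17.7% of all genes, 9.18% higher and 8.49% lower. Hoxc6 (-1.23 ± 0.23, adjusted p = 3.45e-05), Hoxc5 (-0.77 ± 0.17), Hoxc4 (-0.74 ± 0.20) and Hoxc8 (-0.56 ± 0.19) were negative. Hoxb9 (0.69 ± 0.18), Hoxd11 (0.52 ± 0.18) and Hoxd3 (0.46 ± 0.17) were positive. Of the 35 fits without 1 array, Hoxd3 lost its call in 22 (adjusted p up to 0.0975), Hoxc8 in 19 (up to 0.0895) and Hoxd11 in 14 (up to 0.146). The other 4 lost it in 0. The comparison shares its supporting samples with the sex comparisons below. It called 4 genes without any 1 of supporting XY TS13 replicate 3, germ XX TS34 replicate 2, supporting XX TS34 replicate 2 or supporting XY TS34 replicate 1. Both scalings called 6 higher and 4 lower.

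XY supporting cells were called lower than XX supporting cells in Hoxc5 and Hoxc6 at each stage, and in the adjacent Hoxc4 at TS24 and TS34. They were called higher in Hoxb9 at TS24 and TS34, and in Hoxd11, among single stages, at TS24 only. Hoxc4 was above its array's median on 6 of the 35 arrays and Hoxc5 on 1. At TS13, where both sexes carried Tg(Sry-EGFP)92Ei, 2 of 36 Hox genes were called, both lower, against 3.78% of all genes and 1.94% called lower. Both were Hoxc genes. Leaving out supporting XX replicate 1 left 0 calls, and leaving out any other of the 6 arrays left 1.

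Hoxc6 at TS13 read 8.90, 8.03 and 8.71 on the XX arrays and 7.82, 7.92 and 6.72 on the XY arrays. All XY arrays were below all XX arrays, and replicate 3 of XY was the lowest by more than 1 unit. The difference was -1.06 ± 0.27 (adjusted p = 0.0119). Without XY replicate 3 it was -0.68 and not called, with an adjusted p of 0.33.

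Hoxc5 at TS13 read 6.42, 6.75 and 6.10 on the XX arrays and 5.70, 5.60 and 5.83 on the XY arrays, again without overlap. The difference was -0.71 ± 0.20 (adjusted p = 0.0257). It lost its call in 4 of the 6 fits that left out 1 array, with adjusted p up to 0.299. At this stage the 6 stromal markers had a median difference of -0.10, with 1 called higher and 1 lower in XY. Pdgfra, a receptor gene of stromal cells, had group means of 7.85 in XX and 9.66 in XY, and Nr2f2, a nuclear receptor gene of the same list, 9.53 and 8.40. Of the 6 supporting markers 2 were called lower in XY, with a median of -0.44, and Lhx9 had group means of 11.19 and 9.54. The 3 red blood cell markers had a median difference of 0.83 with 0 called. XY replicate 3, the lowest array for Hoxc6, had the highest red blood cell mean of the 6 arrays, 8.86, and the lowest supporting mean, 9.81. The part of these markers in the result was not tested.

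At TS24, 6 of 36 genes were called (16.7%), 3 higher and 3 lower in XY, near the 15.3% of all genes, of which 9.75% were higher and 5.58% lower. Hoxc4 read 7.23, 7.46 and 6.31 in XX and 5.58, 6.29 and 5.56 in XY. The XX array at 6.31 came within 0.1 of the highest XY array. The difference was -1.19 ± 0.24 (adjusted p = 1.79e-04).

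Hoxb9, of the lower trunk, read 6.43, 6.14 and 5.98 in XX and 7.27, 7.16 and 7.41 in XY at TS24, with a gap between the groups. Its difference was 1.10 ± 0.22 (adjusted p = 1.61e-04). Hoxc6 read 8.12, 7.55 and 8.19 in XX and 6.74, 7.04 and 6.99 in XY, a difference of -1.03 ± 0.27 (adjusted p = 0.00468). All of its XY arrays stayed above the highest germ array of that stage.

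Hoxd11, a gene of the tail end of its cluster that acts in limb and urogenital development, read 6.94, 6.71 and 6.29 in XX and 7.57, 7.73 and 7.48 in XY at TS24. The groups did not overlap, and the difference was 0.95 ± 0.21 (adjusted p = 8.01e-04). Its neighbour Hoxd10 read 6.94, 7.08 and 6.88 in XY and 6.52, 6.65 and 6.24 in XX, and its difference of 0.50 ± 0.27 was not called (adjusted p = 0.249). Hoxa5 (0.67 ± 0.22) and Hoxc5 (-0.58 ± 0.20) were also called, and each lost its call in 4 of the 6 fits without 1 array, with adjusted p up to 0.20 and 0.129.

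At TS34, 6 of 36 genes were called, 1 higher and 5 lower in XY, against 14% of all genes, 8.24% higher and 5.74% lower. Without XY replicate 3 the count was 3, and under both scalings it was 2 higher and 5 lower. Hoxc6 read 8.61, 7.74 and 7.66 in XX and 6.60, 6.55 and 6.98 in XY, a difference of -1.29 ± 0.27 (adjusted p = 3.05e-04). Hoxb9 read 6.51, 6.18 and 6.42 in XX and 7.39, 7.19 and 8.16 in XY, a difference of 1.21 ± 0.22 (adjusted p = 3.52e-05). For both genes the groups were apart, and replicate 3 of XY was the highest array for Hoxb9.

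Hoxc4 at TS34 read 6.60, 6.62 and 6.39 in XX and 5.74, 5.62 and 5.58 in XY, a difference of -0.89 ± 0.24 (adjusted p = 0.0066). Hoxc9 read 7.85, 7.76 and 8.20 in XX and 7.22, 7.40 and 7.24 in XY, a difference of -0.65 ± 0.20 (adjusted p = 0.0179). Neither overlapped, but Hoxc9 lost its call without 1 of 3 arrays, with adjusted p up to 0.159. Hoxd8 (-0.64 ± 0.21) and Hoxc5 (-0.62 ± 0.20) were the other 2, and each lost its call in 4 or 5 of the 6 fits without 1 array.

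**Figure D3:**
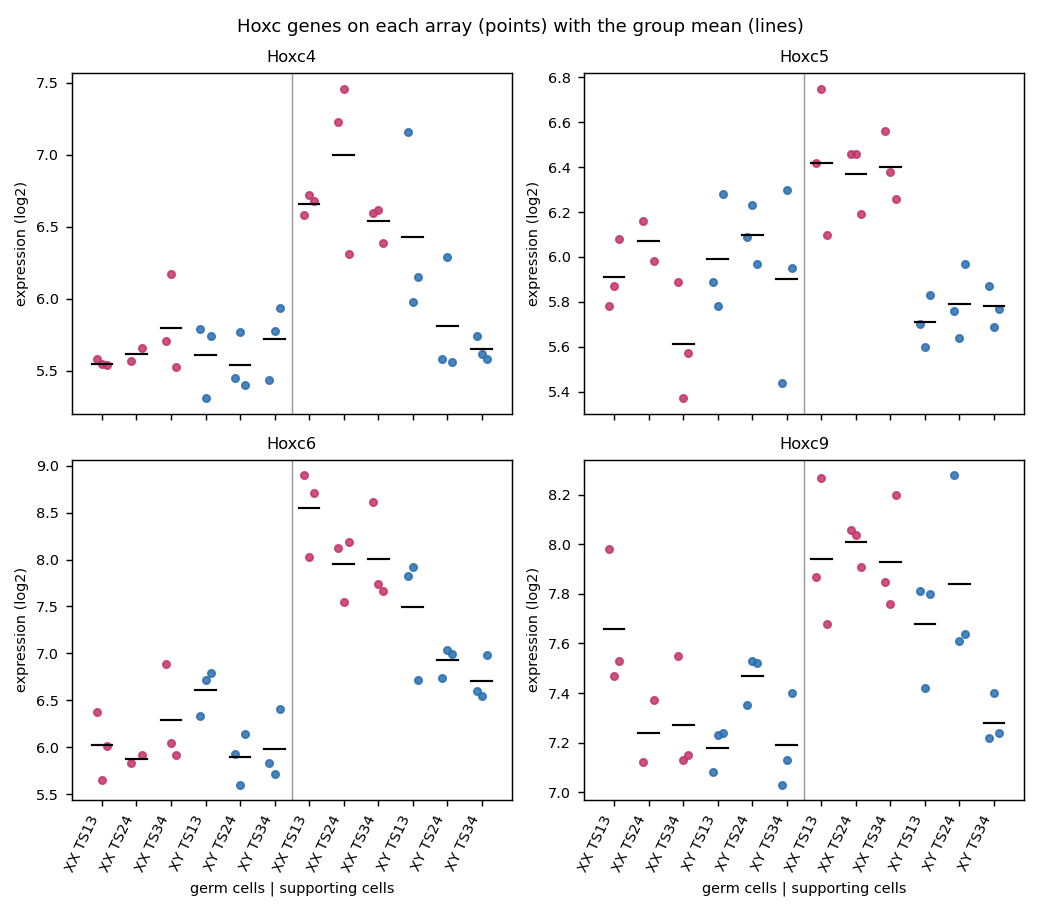
Expression (log2) of Hoxc4, Hoxc5, Hoxc6 and Hoxc9 on each of the 35 arrays by group, XX in pink and XY in blue, with lines at the group means and germ cells left of the vertical line. In supporting cells the XX points of Hoxc6 lie between 7.55 and 8.90, the XY points fall to 6.71 on average at TS34, and germ arrays stay at or below 6.89.

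Over the 3 stages together, 7 of 36 Hox genes differed between XY and XX supporting cells, 3 higher and 4 lower, against 22.3% of all genes, 12.2% higher and 10.2% lower. The lower genes were Hoxc6 (-1.13 ± 0.16), Hoxc4 (-0.77 ± 0.14), Hoxc5 (-0.64 ± 0.12) and Hoxc9 (-0.36 ± 0.11), and the median of the 8 Hoxc genes was -0.36 against -0.01 for all genes. Hoxc5 was the only 1 of the 7 whose 9 XX and 9 XY arrays did not overlap. The higher genes were Hoxb9 (0.86 ± 0.13), Hoxd11 (0.49 ± 0.12) and Hoxa5 (0.36 ± 0.13). Without 1 array Hoxa5 lost its call in 9 of 18 fits (adjusted p up to 0.091) and Hoxc9 in 3 (up to 0.0639). This average was added after the values were seen.

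Hoxc5 and Hoxc6 were lower in XY within the shared mouse line at TS13, whereas Hoxc4, Hoxb9 and Hoxd11 were called where the lines differed. At TS13 their differences were -0.23 ± 0.24, 0.27 ± 0.22 and -0.02 ± 0.21. Whether the sex difference at TS34 departed from that at TS13 was tested in supporting cells: 0 of 36 Hox genes were called by limma, against 4.88% of all genes called. At an unadjusted p under 0.05 there were 4 Hox genes. Hoxb9 came nearest at 0.94 ± 0.31 (adjusted p = 0.0738), and it was called after quantile normalization or median centring.

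**Figure D4:**
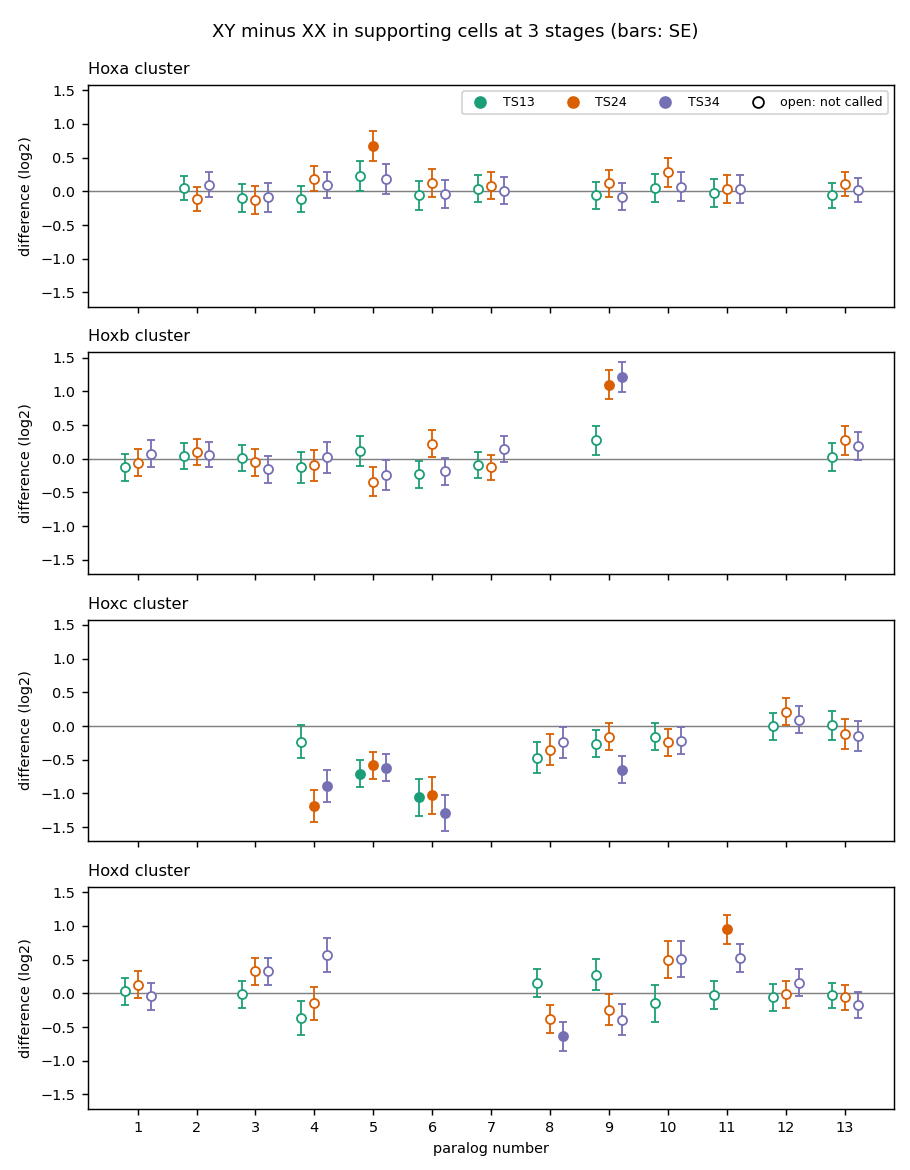
Difference between XY and XX supporting cells (log2, bars are SE) for each tested Hox gene against paralog number at TS13 (green), TS24 (orange) and TS34 (purple), with 1 panel per cluster. Filled points passed the test. Hoxc4 to Hoxc6 lie below 0, Hoxb9 rises to 1.10 and 1.21 at the later stages, and the Hoxa panel holds 1 filled point, Hoxa5 at TS24.

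The mean levels of other cell types' markers were set beside these differences. At TS24 the 6 stromal markers averaged 7.07 to 7.44 on the XX arrays and 6.95 to 7.31 on the XY arrays. Of them 1 was called higher and 1 lower in XY. Group means at TS24 were 8.70 in XX and 7.16 in XY for Nr2f2, and 6.82 and 7.62 for Pdgfra. At TS34 the 6 stromal markers averaged 7.05 to 7.17 on the XX arrays and 7.12 to 7.27 on the XY arrays, and 0 of them were called. The germ and mesonephric epithelium lists each had 1 marker called lower in XY at TS34 and 0 called at TS24. Markers of red blood cells averaged 6.53 to 8.42 in XX and 8.14 to 9.57 in XY at TS24, with 2 of 3 called higher in XY. At TS34 they averaged 6.68 to 8.18 and 7.86 to 8.10, with 1 of 3 called. Of the 6 supporting markers 1 was called higher and 1 lower in XY at TS24, with a median of -0.09, and 0 and 2 at TS34, with a median of -0.14. Lhx9, a gene of gonadal progenitors, had group means of 10.88 and 10.12 in XX but 6.80 and 6.45 in XY at these stages. Nr5a1, a regulator of steroid-producing cells, had 8.44 and 8.12 in XX and 9.48 and 8.64 in XY. Their part in the Hox differences was not tested.

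In germ cells 1 Hox gene separated the sexes. At TS13, 0 of 36 were called by limma against 0.0285% of all genes called, and 2 Hox genes had an unadjusted p under 0.05. At TS24, 0 were called against 1.96% of all genes called, with 3 Hox genes called under median centring and 4 under quantile normalization. There 8 Hox genes had an unadjusted p under 0.05. The share of all genes at an unadjusted p under 0.05 is not given here for any comparison. At TS34 the 1 gene was Hoxd8, lower in XY, against 10.5% of all genes and 4.46% called lower.

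Hoxd8 in germ cells at TS34 read 6.90, 6.96 and 6.54 in XX and 5.57, 6.39 and 5.80 in XY. The groups did not overlap, and the difference was -0.88 ± 0.21 (adjusted p = 0.00301). At TS13 it read 5.32, 5.62 and 5.36 in XX and 6.04, 5.32 and 5.38 in XY, which overlapped. The change of the sex difference between those stages was -1.03 ± 0.30 (adjusted p = 0.0402), the only Hox gene called there, against 3.69% of all genes and 1.87% called lower. It lost that call in 7 of the 12 fits without 1 array.

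Stage steps moved few Hox genes. In XX germ cells, Hoxd8 rose from 5.39 and 5.51 at TS24 to 6.90, 6.96 and 6.54 at TS34, a step of 1.35 ± 0.24 (adjusted p = 1.23e-04). All TS34 arrays were more than 1 unit above both TS24 arrays. Over the same step the supporting marker mean went from 6.65 and 7.36 to between 6.50 and 6.93, and the stromal mean from 6.91 and 7.54 to between 6.31 and 7.20. The ranges overlapped for both lists, with median differences of -0.26 and -0.48. Of the stromal list 1 marker was called lower, and of the supporting and germ lists 0. Lower calls also fell on 2 mesonephric epithelium, 2 endothelium, 1 macrophage and 1 red blood cell marker. In these lists 0 markers were called higher. Their part in the result was not tested.

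That step called 3 of 36 Hox genes, 1 higher and 2 lower, with the germ XX TS24 group at 2 arrays. Of all genes 8.88% were called, 1.86% higher and 7.02% lower. The count was 1 without germ XX TS24 replicate 2 or without TS34 replicate 2 or 3, and 6 without TS34 replicate 1. With the somatic-like TS24 array kept it was also 6, and under both scalings it was 2 higher and 2 lower. Hoxc12 fell by 0.76 ± 0.22 and Hoxd3 by 0.72 ± 0.22. Hoxc12 read 5.87 and 5.93 at TS24 and 5.43, 4.98 and 5.01 at TS34, below its array's 25th percentile on every TS34 array. Each of these 2 lost its call in 4 of the 5 fits without 1 array, with adjusted p up to 0.126 and 0.212.

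In XY supporting cells, 2 Hox genes rose from TS13 to TS24, where the mouse line changed, against 16.8% of all genes and 15.1% called higher. Hoxd11 went from 6.40, 6.50 and 6.71 to 7.57, 7.73 and 7.48, a step of 1.06 ± 0.21 (adjusted p = 2.57e-04). Hoxb9 went from 6.37, 6.51 and 6.68 to 7.27, 7.16 and 7.41, a step of 0.76 ± 0.22 (adjusted p = 0.0119). Both moved without overlap. Over this step 2 of 6 mesonephric epithelium markers were called higher, with a median of 0.33, and 2 of 6 stromal markers lower, with a median of -0.11. The germ, endothelium and red blood cell lists each had 1 marker called higher, the supporting list 1 higher and 1 lower, and the macrophage list 0. Their part in the result was not tested. Under quantile normalization or median centring, which lowered the median step of all genes from 0.22 to 0.01 and 0.06, 4 Hox genes were called, 2 higher and 2 lower. Without XY TS13 replicate 1 the count was 1.

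From TS24 to TS34 in XY supporting cells, Hoxd8 fell from 6.54, 6.49 and 6.81 to 5.88, 5.86 and 5.69, a step of -0.80 ± 0.21 (adjusted p = 0.046), the 1 gene called, against 1.06% of all genes and 0.905% called lower. The arrays did not overlap, but the call was lost in 5 of the 6 fits without 1 array and under quantile normalization and median centring. Hoxd8 was thus high in XX germ cells and low in XY supporting cells at TS34, the reverse of its mean order between the cell types. Germ XX averaged 6.80 ± 0.23 and supporting XY 5.81 ± 0.10 (SD, n = 3 each), and this pair was not tested.

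The other 5 steps called 0 Hox genes by limma. They were germ XX and XY and supporting XX from TS13 to TS24, where 1.21%, 1.5% and 3.37% of all genes were called. From TS24 to TS34 they were germ XY and supporting XX, where 2.73% and 0.643% of all genes were called. At an unadjusted p under 0.05 there were 5, 1 and 2 Hox genes in the earlier steps and 1 and 3 in the later ones.

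**Figure D5:**
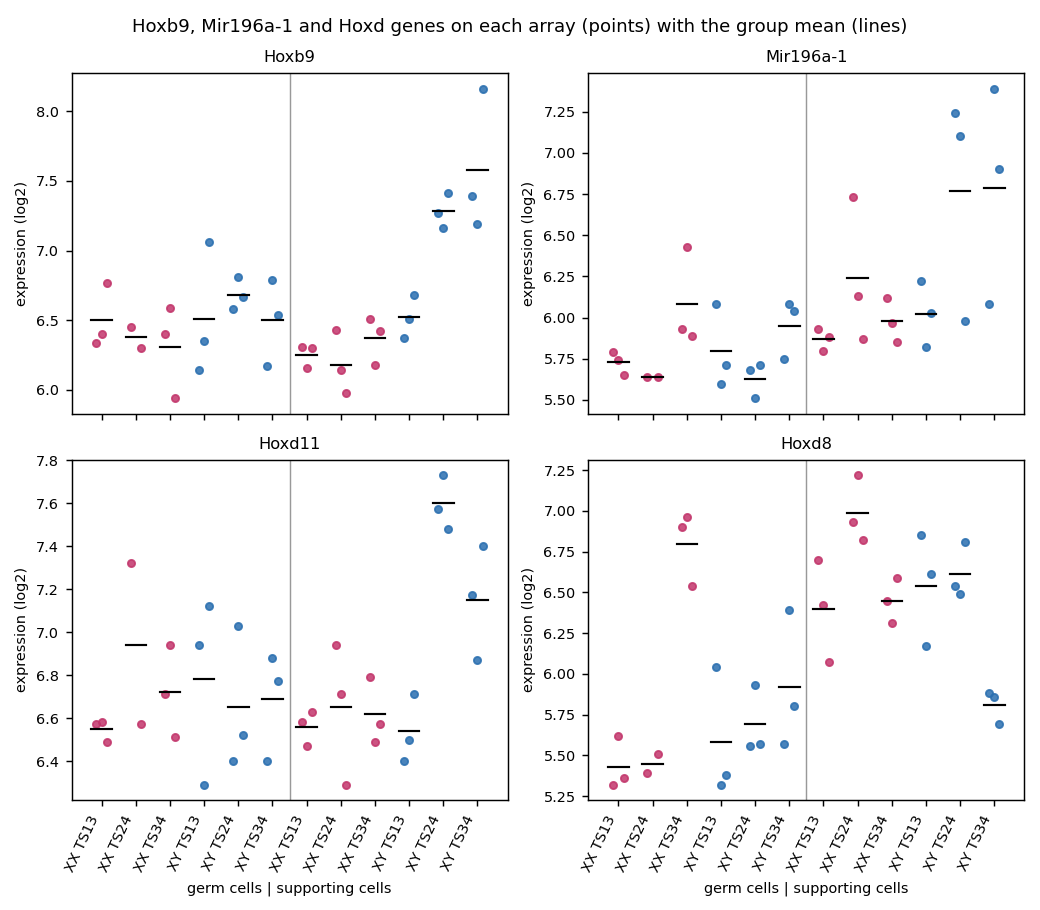
Expression (log2) of Hoxb9, the microRNA gene Mir196a-1, Hoxd11 and Hoxd8 on each of the 35 arrays by group, XX in pink and XY in blue, with lines at the group means and germ cells left of the vertical line. Hoxb9 and Hoxd11 are highest in XY supporting cells at TS24 and TS34, 4 of the 6 Mir196a-1 points there lie above all others, and Hoxd8 stands high in XX germ cells at TS34.

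Of the non-coding genes inside the clusters, 10 had a probe set and 8 were tested. Mir196a-1 read 7.24, 7.10 and 5.98 in XY supporting cells at TS24 and 6.08, 7.39 and 6.90 at TS34. The XX supporting arrays read 6.73, 6.13 and 5.87 at TS24 and 6.12, 5.97 and 5.85 at TS34. The sex difference was called at TS34 (0.81 ± 0.25, adjusted p = 0.0183) but not at TS24 (0.53 ± 0.25, adjusted p = 0.172). In XY it rose from TS13 to TS24 by 0.75 ± 0.25 (adjusted p = 0.0291), the step at which the adjacent Hoxb9 rose.

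Each XY group held 1 array that overlapped the XX arrays, at 5.98 and 6.08. The array reads labelled total RNA, so the precursor and the mature microRNA were not told apart. Mir196a-2, which encodes the same mature form, had group means of 4.86 to 5.35. In supporting cells its means over the stages were 4.96, 5.11 and 4.97 in XX and 5.13, 5.29 and 4.92 in XY. Mir196b, whose mature form shares the seed, had group means of 5.40 to 5.97 and was not called between the sexes of supporting cells. Mir615 in the Hoxc cluster had group means of 8.07 to 8.48, and neither it nor the antisense gene Hoxd3os1 was called in the same comparisons. Mir10a and Mir10b were too low to be tested.

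TALE homeodomain proteins bind DNA together with HOX proteins, and 10 of 11 listed genes were tested. In supporting against germ cells 4 were higher and 1 lower, against 20.3% and 32.9% of all genes, with a median of 0.09 against -0.08. Meis1 (2.55 ± 0.10) and Tgif1 (1.71 ± 0.11) led. Between XY and XX supporting cells 4 were lower at TS24, Pbx3 (-1.41 ± 0.25), Meis1 (-1.08 ± 0.25), Meis2 (-0.78 ± 0.26) and Meis3 (-0.64 ± 0.22), and 0 were higher. At TS34 Pbx3 (-1.88 ± 0.25) and Meis3 (-1.17 ± 0.22) were lower. Of all genes 5.58% and 5.74% were lower at these stages. The medians were -0.32 and -0.37 against 0.04 and -0.01 for all genes. The mouse line differed between the sexes at both stages. At TS13, within 1 line, 0 of the 10 were called, against 3.78% of all genes.

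Pbx3, a partner of many HOX proteins, had group means of 8.49, 9.19 and 9.45 over the stages in XX supporting cells and of 7.94, 7.79 and 7.57 in XY. In germ cells its means were 7.69, 8.34 and 9.31 in XX and 8.11, 8.12 and 8.19 in XY. XX was thus the higher sex in both cell types at TS34, with a germ difference of -1.12 ± 0.25 (adjusted p = 0.00119). In supporting cells the mouse line also differed between the sexes at that stage.

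Polycomb genes, whose products keep Hox clusters silent, were lower in supporting cells for 9 of 11 and higher for 1, against 32.9% and 20.3% of all genes. Their median was -0.79 against -0.08. Eed (-1.35 ± 0.09), Phc1 (-1.33 ± 0.09) and Jarid2 (-1.24 ± 0.09) were lowest against germ cells, and Ring1 (0.37 ± 0.08) was the 1 higher. Between the sexes of supporting cells 1 was called at each stage: Suz12 lower in XY at TS13, and Ezh2 higher at TS24 (0.85 ± 0.22) and TS34 (0.74 ± 0.22). The mouse line differed between the sexes where Ezh2 was called.

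Of 14 known activators of Hox clusters 13 were tested, and 4 were higher and 4 lower in supporting cells. These counts lie near the shares of all genes, 20.3% higher and 32.9% lower, and the medians were -0.11 and -0.08. Aldh1a2, an enzyme that makes retinoic acid, was higher (1.63 ± 0.09), as was the demethylase Kdm6b (1.02 ± 0.08), while Kmt2a (-0.66 ± 0.08) and Kat6a (-0.57 ± 0.09) were lower. In XY against XX supporting cells Aldh1a2 was lower at TS24 (-1.11 ± 0.22) and TS34 (-1.69 ± 0.22), and the retinoic acid receptor gene Rara was higher (0.82 ± 0.21 at both). The mouse line differed between the sexes at these stages. At TS13, within 1 line, 0 of the 13 were called. Of 11 other homeobox genes related to Hox 10 were tested, and 0 were higher and 2, Cdx2 and Gbx2, lower in supporting cells, with a median of -0.10 against -0.08 for all genes. Cdx2 was also counted among the activators. Its group means were 7.06 and 7.70 in XX germ cells at TS24 and TS34 and 6.13 to 6.49 in the other groups. Between the cell types in XY alone Cdx2 was not called.

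The genes next to the clusters were counted too. Of 24 flanking genes, 3 on each side of each cluster, 4 were higher and 14 lower in supporting cells, against 20.3% and 32.9% of all genes. Their median was -0.28 against -0.08. Around Hoxc it was 0.20, with 3 of 6 higher and 1 lower. Around Hoxc, Calcoco1 and Nfe2 were higher in XY supporting cells at TS24 (1.01 ± 0.22 and 1.18 ± 0.20) and TS34 (0.78 ± 0.22 and 1.26 ± 0.20). The Hoxc genes between them went the other way or were not called. In the same comparisons 2 of 3 red blood cell markers were called higher in XY at TS24 and 1 of 3 at TS34. The part of those markers in the Nfe2 values was not tested. Over all clusters 4 flanking genes were higher at TS24 and 3 at TS34, and 0 were lower at either stage. Of all genes 9.75% were higher and 5.58% lower at TS24, and 8.24% and 5.74% at TS34. The mouse line differed between the sexes at both stages. At TS13, within 1 line, 0 of the 24 flanking genes were called, against 3.78% of all genes.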

How the data were processed

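Sorted germ cells and supporting cells were hybridised to 36 Affymetrix arrays, grouped by the sample titles into cell type, sex and stage. The deposited values are log2 expression per probe set, made by the authors with RMA per the submitters' processing notes; RMA's version and the scaling between arrays were not given in the sources used here. Array medians ran from 6.412 to 6.841 and values from 3.179 to 15.085, and no further scaling was applied. Arrays carry no read depth, so their number limits the precision. Between XY and XX supporting cells at TS34, with 3 arrays each, a gene's SE had a median of 0.211.

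Of 35557 probe sets, 21789 had 1 gene symbol in the platform annotation, 1621 had several and 12147 were not listed. Symbols were updated by Entrez identifier to RefSeq GRCm38.p6 for 21698 probe sets, and the promoter and microRNA sequences and positions come from the same RefSeq build. Probe sets with 1 symbol gave 19938 genes, each represented by the probe set of highest mean. The 17571 genes above their array's 25th percentile on at least 3 arrays were tested.

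A model of 12 group means was fitted over 35 arrays with limma 3.58.1 (R 4.3.3), with 23 residual and 26 prior degrees of freedom. P-values were adjusted by Benjamini-Hochberg over all genes tested, and a gene was called at an adjusted p under 0.05. The labels do not say whether arrays of a group came from separate pools of gonads, so each p-value reflects only how far these samples spread, and that spread may be technical. Within a group arrays correlated at 0.9631 to 0.9915, and 0 pairs were identical. The fit was tested on simulated data.

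There were 17 planned comparisons, and 4 were added after the values were seen. The Hox genes and the gene lists were chosen with earlier results of these data known. In each comparison the called Hox genes were named, largest difference first, up to 8. Values on each array were given for the 4 largest cell type differences, for up to 4 called genes in each sex comparison and for the 4 largest stage steps. Alternatives were keeping all 36 arrays, quantile normalization, median centring of arrays, no filter, a filter at the 50th percentile, the mean of a gene's probe sets, the replicate number as a block and leaving out each array in turn.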

Additional observations from a re-analysis of the deposited data

Results flagged for a closer look

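Hoxd8 stood out because the sex difference in germ cells itself differed between stages by a direct test: the XY minus XX difference at TS34 minus that at TS13 was -1.03. The call was lost in 7 of the 12 fits without 1 array, and also with all 36 arrays kept.

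The XY minus XX difference in supporting cells departed from that in germ cells, averaged over stages, by a direct test for 7 Hox genes. The difference was -1.23 for Hoxc6, -0.77 for Hoxc5, -0.74 for Hoxc4 and -0.56 for Hoxc8. It was 0.69 for Hoxb9, 0.52 for Hoxd11 and 0.46 for Hoxd3. Hoxd3, Hoxc8 and Hoxd11 lost their calls in many of the fits without 1 array, as given above. With all 36 arrays kept, Hoxc4, Hoxc6 and Hoxc8 were not called. The comparison was added after the values were seen, and the mouse line of the supporting cells differed between the sexes at TS24 and TS34.

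The array labelled germ XX TS24 replicate 3, which no comparison used, had 13 of 37 Hox genes higher than every germ and supporting array. They were 1 Hoxa, 2 Hoxb, 4 Hoxc and 6 Hoxd genes. Hoxd10 read 10.27 there against at most 7.31 elsewhere, Hoxc6 9.91 against 8.90, Hoxc9 9.20 against 8.28, Hoxd8 8.60 against 7.22 and Hoxc10 7.39 against 6.21. The same array read 10.83 for Tcf21, 10.60 for Pdgfra and 10.12 for Dcn, which mark stromal cells. It is 1 array with no replicate check.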

How the results depend on the processing

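Of 71 called differences of single Hox genes, 442 of 480 values under 7 other settings kept their direction and call, 38 lost the call and 0 changed sign. The mean of a gene's probe sets could not change a Hox value, since each Hox gene had 1 probe set. The 50th percentile filter covered 54 of the 71 differences, and the rest count there neither as kept nor as lost. Keeping all 36 arrays lost 26, quantile normalization 6, median centring 5 and the replicate block 1. Counts of called Hox genes moved by over 1.5 times as follows, and the cause was not tested. The shares of all genes called under these settings are not given here. With all 36 arrays the sex comparison called 3 in germ cells at TS24 and 0 at TS34, and in supporting cells 0 at TS13, 3 at TS24 and 1 at TS34. In that setting XX germ cells called 1 from TS13 to TS24 and 6 from TS24 to TS34, XY supporting cells 0 from TS24 to TS34, the stage change of the germ sex difference 0, and the supporting minus germ sex difference 4. Quantile normalization called 19 between cell types and 4 between sexes in germ cells at TS24. It called 4 and 0 in the steps of XY supporting cells and 1 for the stage change of the supporting sex difference. Median centring called 3 in germ cells at TS24, 4 and 0 in those steps and 1 for that change. The 50th percentile filter called 1 in supporting cells at TS13. Leaving out each array in turn gave 11 to 13 calls between cell types. For the sexes it gave 0 to 1 in germ cells at TS24, 1 to 2 at TS34, and 0 to 1, 4 to 5 and 3 to 5 in supporting cells at TS13, TS24 and TS34. Steps gave 0 to 1 and 1 to 6 in XX germ cells and 1 to 3 and 0 to 2 in XY supporting cells. Stage changes of the sex difference gave 0 to 1 in each cell type, and the supporting minus germ sex difference 4 to 7. Where 1 array remained in a group, its spread was assumed to be that of the other groups.

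With the replicate number as a block, 11 Hox genes were called between cell types, Hoxb9 being lost, and 4 from TS24 to TS34 in XX germ cells; no other count changed. Same-numbered arrays of different groups deviated with a median correlation of -0.0066 over 187 pairs (-0.51 to 0.52). Over 374 pairs of different number it was 0.0032. Both medians pool pairs of all groups, so they cannot show whether the numbers paired arrays within a stage or mouse line.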
